A study of Mus musculus with 6 samples.

Results

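The myosin chains of the mouse heart and the kinase of its regulatory light chain were examined in 6 hearts. They comprised 10 genes, namely the light chains Myl1, Myl2, Myl3, Myl4, Myl7 and Myl9, the heavy chains Myh6, Myh7 and Myh7b, and the light chain kinase Mylk3, out of 18193 genes that the array names with a single symbol. Every probe set carrying 1 of these symbols and no other was used, which gave 14 probe sets, 1 for each of 7 genes and several for Myl4, Myl3 and Myh6. A further 2 probe sets that name both Myh6 and Myh7 were left out. The genes were chosen by family, with the higher Myl7 and Myl4 signals of the transgenic hearts already known from the same arrays, so calls and fold changes of these genes are given as a description, without a p-value.

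The hearts were left ventricles of male FVB mice aged 11 to 12 weeks, 3 WT and 3 Glut1-TG, and each was read on an Affymetrix array of its own. Glut1-TG mice carry human Glut1, an insulin independent glucose transporter, under the alpha-myosin heavy chain promoter, which is the promoter of Myh6 and restricts the transgene to cardiomyocytes. The sample titles call the controls WT, whereas the design text of the series describes both groups as transgenic; the titles were followed here, and whether the controls carry another transgene is not settled by the sources used. No operation or drug is named for either group, and the number of founder lines and the use of littermates are not given in the sources used here. The comparison addresses how raised glucose uptake by cardiomyocytes alters gene expression in the unstressed heart.

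Sarcomeric myosin is the motor of the thick filament. Each heavy chain binds an essential and a regulatory light chain at its lever arm, and phosphorylation of the regulatory chain by light chain kinase tunes contraction. Atrial and ventricular cardiomyocytes use different light chains, Myl7 with Myl4 in the atria and Myl2 with Myl3 in the ventricles, while Myh6 is the main heavy chain of the adult mouse ventricle and Myh7 that of the fetal ventricle. Myl4 is also present in the fetal ventricle, and both Myl4 and Myh7 are known to return in stressed hearts.

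Of the members, the main probe set of the atrial light chain Myl4 was called higher in Glut1-TG hearts, and the probe set of the atrial light chain Myl7 was higher without overlap but was not called. The Myl7 probe set averaged 43.7 ± 41.0 in WT and 468 ± 214 in Glut1-TG hearts (SD, n = 3), and the main Myl4 probe set averaged 369 ± 80.5 and 1257 ± 381. The ventricular light chains Myl2 and Myl3, the heavy chains, Myl1, Myl9 and Mylk3 had no probe set called in either direction. Among them Myh6 1417729_at and Myl3 1427768_s_at were lower without overlap. Of all probe sets past the filter described next, 8.12% were higher and 7.91% lower without overlap. A probe set was called when its adjusted p from limma, over all 27022 probe sets past a filter on low signals, was under 0.05, and 1 of the 14 members was called higher (Myl4) and 0 lower. Over all probe sets past the filter, 0.148% were called higher and 0.289% lower. Because the contrast was known when the genes were chosen, nothing is read from the members' count against those shares.

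**Figure D1:**
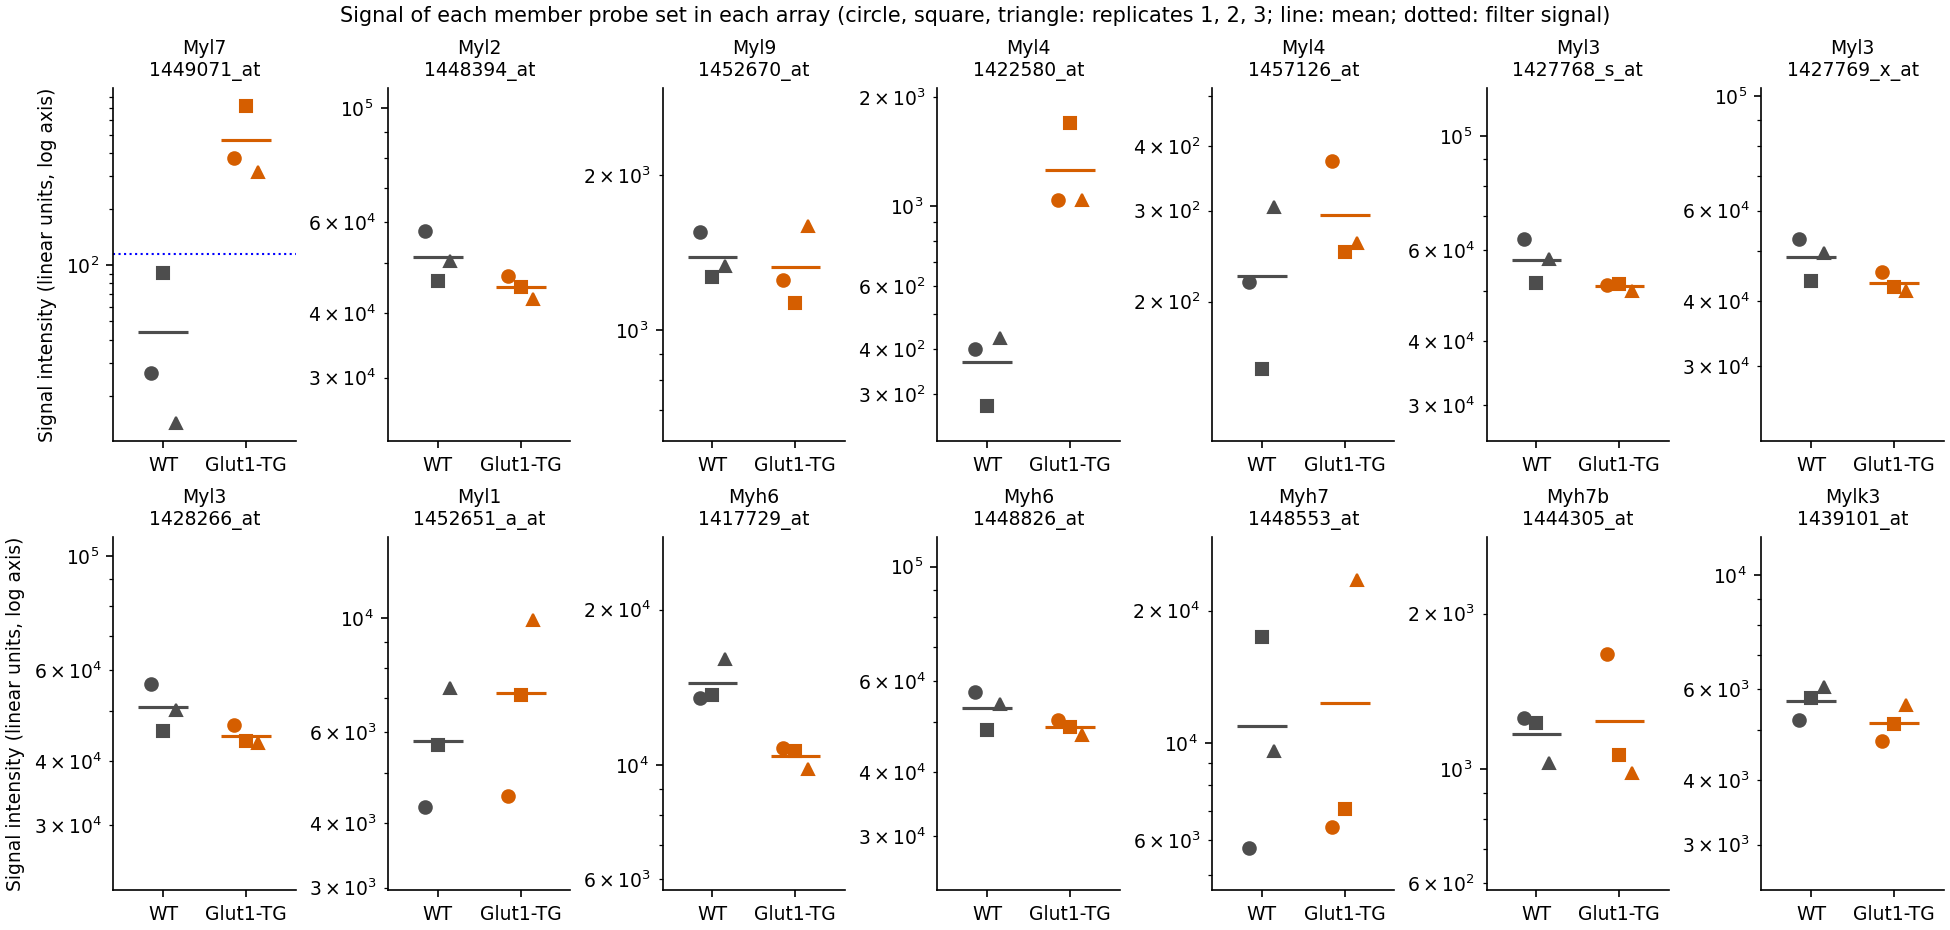
Signal intensity (vertical, log axis, linear units) of each of the 14 probe sets in 3 WT and 3 Glut1-TG hearts, with circle, square and triangle for replicates 1, 2 and 3, a line for the group mean and a dotted line at the filter signal of 115 in the panel where a signal lies under it. The Myl7 and main Myl4 panels show Glut1-TG arrays wholly above the WT arrays. The Myh6 1417729_at panel shows them wholly below, as does that of Myl3 1427768_s_at by a small margin. Myh7 spreads widely within both groups.

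Before the members were compared, the arrays were checked. The transgene is human, and the array has 3 probe sets for mouse Slc2a1, which encodes Glut1. They separated the groups but not in a single direction: 1 read 401 to 430 in WT and 55.9 to 123 in Glut1-TG hearts and was called lower (adjusted p = 0.023 by limma), 1 read 265 to 411 against 125 to 174, and 1 read 409 to 533 against 753 to 851. The median signal was 171 to 187 in 5 arrays and 213 in Glut1-TG replicate 1. The trimmed mean of every array was 500, the value to which the authors' software had scaled them. All 14 cardiomyocyte markers passed the filter, including Tnnt2 and Mybpc3. In whole ventricle, fewer cells of a type and less RNA per cell cannot be told apart.

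Myl7 encodes the atrial regulatory light chain. Its single probe set, 1449071_at, read 26.5, 90.5 and 14.2 in the WT hearts and 378, 713 and 315 in the Glut1-TG hearts. Every Glut1-TG heart lay above every WT heart, and the Glut1-TG heart with the highest signal was replicate 2. The log2 fold change was 3.76 with a standard error of 0.67 and a 95% confidence interval of 2.25 to 5.27. All 3 WT signals lay under the filter signal of 115, so the probe set passed the filter only through its Glut1-TG arrays. The size of the change accordingly depends on how low signals are treated: it was 2.48 after adding 50 to every signal and 1.93 when signals under 115 were raised to it. Myl7 was not called over 27022 probe sets. Its call changed with the setting: among others it was called under both of those treatments and without WT replicate 2, the WT heart with the highest Myl7 signal (4.50), while without any 1 of the Glut1-TG hearts and under the strict filter it fell under the filter and was not tested. Since the gene was chosen with this contrast known and passed the filter through 1 group, these calls support nothing further. It was 1 of 5 probe sets on the array with all WT signals under 115 and all Glut1-TG signals over 2 times that value. The others were those of Sorcs2, Gsg1l and Cracdl and 1 without a symbol. For Myl7 this pattern restates the known contrast, and the reverse pattern was not counted, so it is a description only.

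Myl4 encodes the atrial essential light chain. Probe set 1422580_at read 400, 278 and 430 in WT hearts and 1037, 1697 and 1038 in Glut1-TG hearts. The groups did not overlap, all 6 signals lay over the filter, and Glut1-TG replicate 2 was again the highest. The log2 fold change was 1.75 with a standard error of 0.23 and an interval of 1.23 to 2.28, the only call among the members. The call ended without WT replicate 2, the lowest WT heart for this probe set (1.56), when the log2 signals of both Myl4 probe sets were averaged (1.09), without the intensity trend in limma, where 0 probe sets were called over the whole array, and with the methods' t-test after Benjamini-Hochberg adjustment, so in 4 of 19 alternatives. The second Myl4 probe set, 1457126_at, read 218, 148 and 305 in WT and 374, 249 and 260 in Glut1-TG hearts. It overlapped between groups, at a log2 fold change of 0.43 with an interval of -0.28 to 1.15. The 2 probe sets of Myl4 therefore gave different readings, and which transcripts each of them reads was not tested.

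The start-site regions of Myl7 and Myl4 are shown because their signals were the ones that stood higher in Glut1-TG hearts. Both are 250 bases upstream of the annotated start, from RefSeq on build GRCm38.p6, at chr11:5898783-5899032 on the minus strand for Myl7 and chr11:104550413-104550662 on the plus strand for Myl4. Capitals mark matches to the motifs searched.
Myl7: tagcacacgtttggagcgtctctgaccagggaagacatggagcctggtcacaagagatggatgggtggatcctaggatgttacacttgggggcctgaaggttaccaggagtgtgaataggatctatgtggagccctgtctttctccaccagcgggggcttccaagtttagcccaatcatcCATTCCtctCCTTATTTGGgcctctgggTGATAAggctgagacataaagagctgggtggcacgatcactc
Myl4: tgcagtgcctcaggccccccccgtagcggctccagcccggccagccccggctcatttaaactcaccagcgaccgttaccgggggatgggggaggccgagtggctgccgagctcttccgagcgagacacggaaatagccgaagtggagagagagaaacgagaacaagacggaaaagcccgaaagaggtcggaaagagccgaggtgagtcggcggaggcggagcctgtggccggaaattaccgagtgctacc
Both strands were searched for 7 motifs that muscle and cardiac transcription factors are known to bind in general. Those of MEF2 factors and the CArG box of serum response factor were searched in their usual degenerate form. The GATA motif was searched as these 4 letters preceded by A or T and followed by A or G. The M-CAT motif of TEAD factors was CATTCC. The T-box motif was searched as GGTGTG. For NKX2 factors the letters were TNAAGTG. The E-box was searched only in its CACGTG form, and none of the matches below overlap. The Myl7 region held an M-CAT match from -70 to -65, a CArG match from -61 to -52 and a GATA match from -42 to -37, counted from the start site. The Myl4 region held no match to the 7 motifs. Of 32851 mouse promoter windows, 12.6% held M-CAT, 1.47% CArG and 26.5% GATA. All 10 genes had a window, 13 in all, and CArG lay in those of 3 genes (Myl3, Myl7 and Myl9), M-CAT in 6 and GATA in 6. Members were counted by gene, some with several windows, and the shares by window, so the units differ. A match is a description of letters and no evidence of binding.

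Myl2, the ventricular regulatory light chain, read 57732, 46215 and 50555 in WT and 47171, 45002 and 42658 in Glut1-TG hearts. The groups overlapped, and the log2 fold change was -0.19 with an interval of -0.41 to 0.03. Myl9, a regulatory light chain of smooth muscle and non-muscle myosin, read 1553, 1269 and 1332 against 1252, 1127 and 1590. It overlapped too, at -0.08 with an interval of -0.40 to 0.25, and was 0.0099 without WT replicate 1 and 0.03 without Glut1-TG replicate 2. For both genes the interval includes 0, and with 3 hearts per group a change within it was not detectable.

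Myl3, the ventricular and slow muscle essential light chain, was read by 3 probe sets. The first, 1427768_s_at, held the highest signal of every array and read 63086, 51852 and 57676 in WT against 51423, 51723 and 50102 in Glut1-TG hearts. It was lower without overlap but was not called, at a log2 fold change of -0.17 with an interval of -0.37 to 0.03, which turned to 0.0059 with the arrays centred on the cardiomyocyte markers. Of the others, 1427769_x_at read 43904 to 52968 in WT and 41876 to 45677 in Glut1-TG hearts, and 1428266_at read 45768 to 56357 and 43364.8 to 46934. Both overlapped, at -0.17 and -0.18. The first and second were designed on 1 accession and are not independent readings, and probe sets with these endings can read related transcripts.

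Myl1, the essential light chain of fast skeletal muscle, read 4306, 5673 and 7318 in WT and 4521, 7088 and 9898 in Glut1-TG hearts. The groups overlapped at a log2 fold change of 0.28, with an interval of -0.31 to 0.86. With 1 array left out it ran from 0.0070 without Glut1-TG replicate 3 to 0.57 without Glut1-TG replicate 1. Of 14 skeletal muscle markers 6 passed the filter and 0 were called, where 0.148% of all probe sets were called higher and 0.289% lower. The summed signal of the 14 markers was 2344 to 2601 in WT and 2057 to 2506 in Glut1-TG hearts. Actn3, the fast fibre alpha-actinin, read 12.7 to 31.0 in WT and 19.7 to 31.9 in Glut1-TG hearts, under the filter in every array. Mylpf, the fast regulatory light chain, read 178 to 235 and 94.7 to 244.

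Myh6, the alpha heavy chain with the faster ATPase, had 2 single-symbol probe sets that differed. Probe set 1417729_at read 13487, 13671 and 16079 in WT and 10765, 10644 and 9842 in Glut1-TG hearts. The groups did not overlap, at a log2 fold change of -0.46 with an interval of -0.67 to -0.26, and the probe set was not called. It stayed below 0 in each of 17 alternatives, between -0.51 and -0.29, and passed only the study's own unadjusted thresholds, which 2.59% of all probe sets passed in that direction. Probe set 1448826_at read 57154, 48264 and 54254 in WT and 50521, 48982 and 47144 in Glut1-TG hearts. It overlapped, at -0.12 with an interval of -0.32 to 0.08. Which transcripts the 2 probe sets read was not tested.

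Myh7, the slower beta heavy chain, varied more between hearts of a group than between groups. Its probe set read 5776, 17407 and 9576 in WT and 6429, 7069 and 23530 in Glut1-TG hearts. The estimate on the log2 scale was 0.05 with an interval of -1.04 to 1.14, an interval wide enough to hold a doubling and a halving. The estimate was -0.55 without Glut1-TG replicate 3, -0.34 without WT replicate 1 and 0.46 without WT replicate 2. The hearts with high Myh7, WT replicate 2 and Glut1-TG replicate 3, were not a group of the study. Myh7b, an ancient sarcomeric heavy chain with low protein output in mammalian heart, read 1257, 1230 and 1025 in WT and 1673, 1066 and 980 in Glut1-TG hearts, with overlap and a log2 fold change of 0.05 (interval -0.39 to 0.48), which turned to -0.19 without Glut1-TG replicate 1 and to -0.05 without WT replicate 3. Mylk3, the cardiac kinase that phosphorylates Myl2, read 5239, 5778 and 6077 against 4777, 5145 and 5598. It overlapped at -0.14, with an interval of -0.35 to 0.07.

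The heavy chain genes also carry microRNAs in their introns, shown because they belong to the same transcription units, although the array did not measure them. The start-site region of Myh6 is shown as well, since the transgene is driven by the promoter of this gene. It lies at chr14:54966608-54966857 on the minus strand, GRCm38.p6 from RefSeq, with capitals for a GATA match from -235 to -230 and an M-CAT match from -206 to -201.
Myh6: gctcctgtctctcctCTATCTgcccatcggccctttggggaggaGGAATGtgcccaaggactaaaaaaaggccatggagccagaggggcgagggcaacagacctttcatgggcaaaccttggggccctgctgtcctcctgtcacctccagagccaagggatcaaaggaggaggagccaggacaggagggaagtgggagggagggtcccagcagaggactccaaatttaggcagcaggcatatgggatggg
The mature microRNAs lie at chr14:54949072-54949093 and chr14:54975710-54975731 on the minus strand and chr2:155622893-155622913 on the plus strand, and capitals mark the seed, bases 2 to 8.
miR-208a-3p, in Myh6: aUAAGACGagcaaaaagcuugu
miR-208b-3p, in Myh7: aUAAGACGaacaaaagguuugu
miR-499-5p, in Myh7b: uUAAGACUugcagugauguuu
The seeds of miR-208a-3p and miR-208b-3p were identical in 7 of 7 bases, and that of miR-499-5p shared 6 of the 7. Over their whole length miR-208a-3p and miR-208b-3p were identical at 19 of 22 positions.

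**Figure D2:**
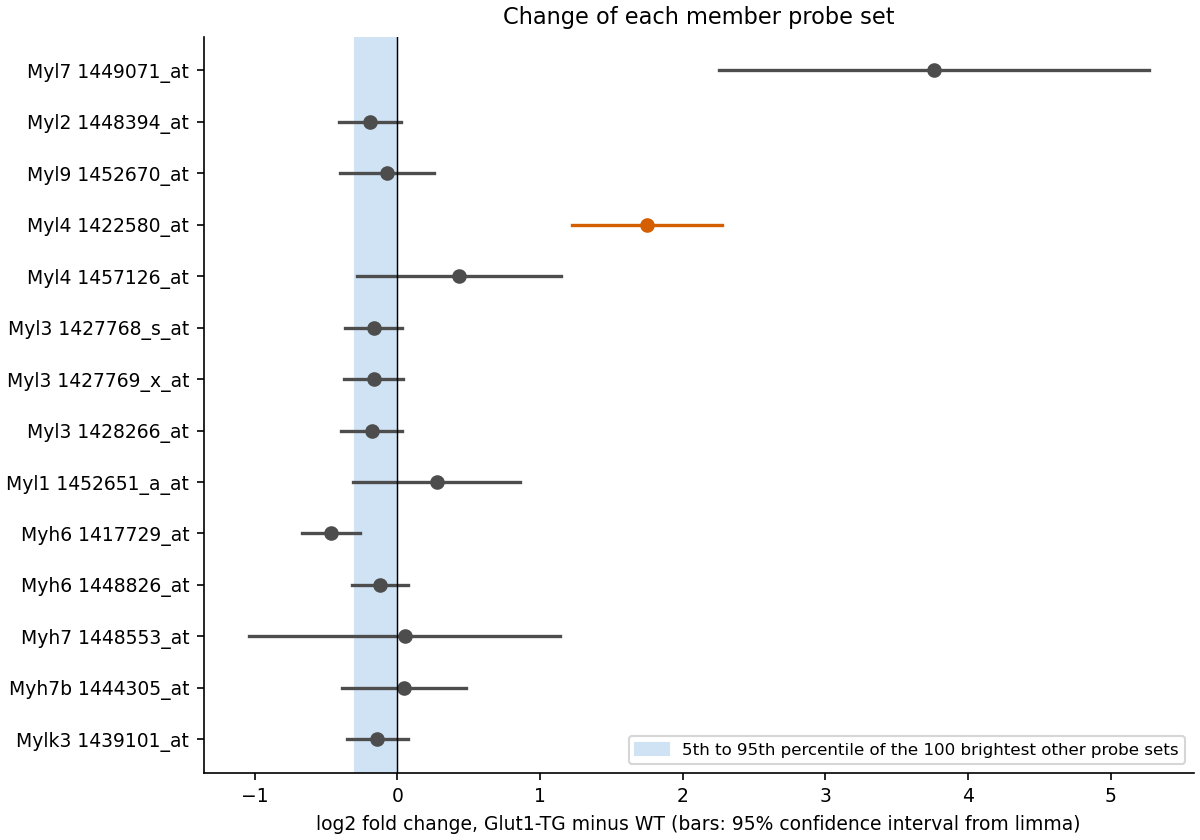
Log2 fold change of each of the 14 probe sets (horizontal, Glut1-TG minus WT) with its 95% confidence interval from limma, orange for the probe set called higher, and a band from the 5th to the 95th percentile (-0.30 to -0.0069) of the 100 brightest other probe sets. The Myl7 and main Myl4 estimates, 3.76 and 1.75, stand apart on the right, and the Myl2, Myl3, Myl9, Mylk3 and second Myh6 estimates lie in the band.

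Across the 14 probe sets, 8 log2 fold changes were below 0 and 6 above, with a median of -0.10 against 0.02 over all probe sets past the filter. Without overlap between the groups, 2 were higher (Myl7 and Myl4) and 2 lower (Myh6 1417729_at and Myl3 1427768_s_at), where over all probe sets 8.12% were higher and 7.91% lower without overlap. The small negative values of the brightest chains had counterparts among other bright probe sets. The Myl2 probe set, all 3 of Myl3 and Myh6 1448826_at were among the 16 highest signals of every array, and the 100 brightest probe sets outside the members had a median log2 fold change of -0.16, with 95 of them below 0. After quantile normalization Myl2 was at -0.01 and Myh6 1448826_at turned to 0.08, and with each array centred on the cardiomyocyte markers Mylk3 turned to 0.03 and Myl9 to 0.10. With that centring the median over all probe sets moved from 0.02 to 0.20, and the calls over the array moved from 40 higher and 78 lower to 70 higher and 39 lower. Centring on the 100 brightest probe sets, an alternative added after the data were seen, gave a median of 0.13 with 47 higher and 45 lower. The Myl7 and Myl4 estimates were 3.93 and 1.92 with the first centring and 3.87 and 1.86 with the second.

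The balance of partner chains was also read within each array, where a scaling factor common to all signals of the array drops out. Myl7 minus Myl2 was -11.09, -9.00 and -11.80 on the log2 scale in WT and -6.96, -5.98 and -7.08 in Glut1-TG hearts. The groups did not overlap, and the mean difference between them was 3.95, against SDs of 1.46 in WT and 0.60 in Glut1-TG hearts. Because the WT Myl7 signals lay under the filter, this shift was 2.67 with 50 added to every signal and 2.12 with signals under 115 raised to it. Myl4 minus Myl3 was -7.30, -7.54 and -7.07 against -5.63, -4.93 and -5.59, without overlap, a mean difference of 1.92 with SDs of 0.24 and 0.39. It used the main Myl4 probe set, and was 1.26 with the probe sets of each gene averaged. Myh7 minus Myh6 was -3.31, -1.47 and -2.50 against -2.97, -2.79 and -1.003. It overlapped, with a mean difference of 0.17 and SDs of 0.92 and 1.09, and its sign turned with the array left out, to -0.27 without WT replicate 1 and -0.46 without Glut1-TG replicate 3, against 0.65 without WT replicate 2. After quantile normalization the shifts were 3.62 for Myl7 minus Myl2, 1.72 for Myl4 minus Myl3 and 0.06 for Myh7 minus Myh6. The levels of different probe sets are not comparable, so only the shift between the groups can be read. The light chain shifts restate the higher Myl7 and Myl4 signals known when the genes were chosen. They are a description and give no further support.

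**Figure D3:**
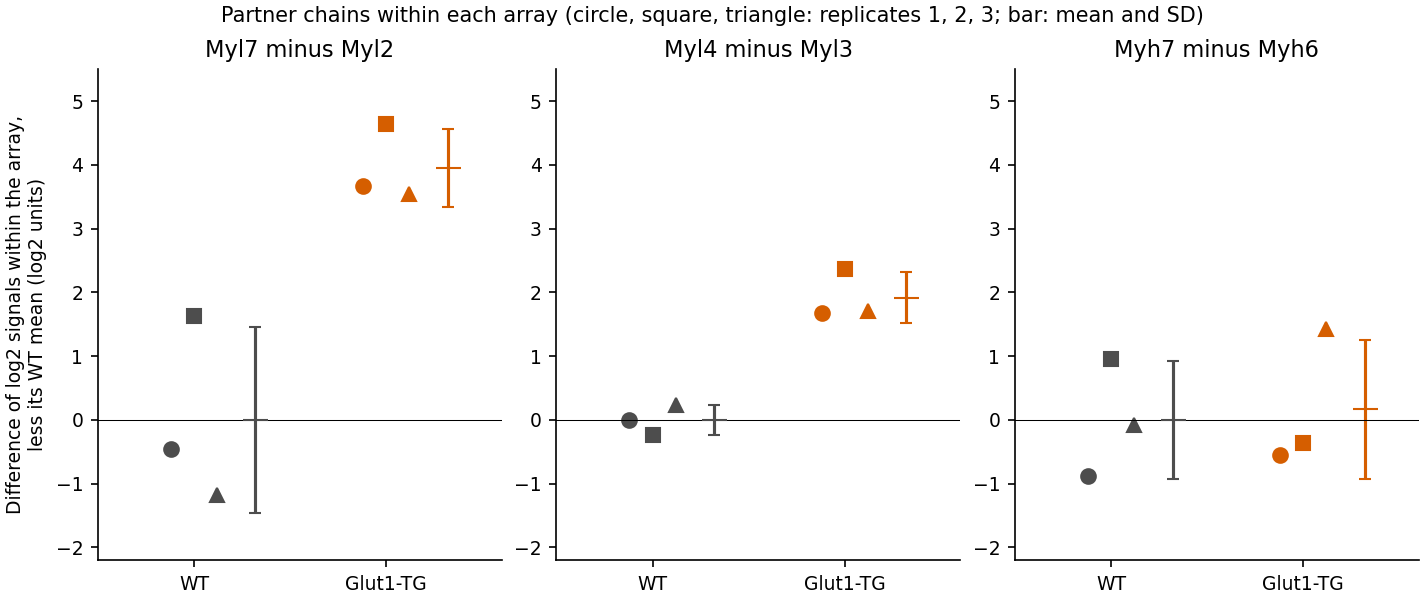
Difference of the log2 signals of partner chains within each array, less the WT mean of that difference (vertical, log2 units), for Myl7 and Myl2, Myl4 and Myl3, and Myh7 and Myh6, with a bar for the group mean and SD (n = 3). The Glut1-TG points average 3.95, 1.92 and 0.17, and only the light chain pairs separate the groups. That separation restates the Myl7 and Myl4 contrast known when the genes were chosen. The first average is 2.67 with an offset of 50 and 2.12 with signals floored at the filter, and the second is 1.26 with probe sets averaged.

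Other markers of atrial cardiomyocytes were read beside the atrial light chains. Of 11 such markers 9 passed the filter and 0 were called, with 0 at an unadjusted limma p under 0.05 and a median log2 fold change of 0.03. Over all probe sets past the filter 0.148% were called higher and 0.289% lower, and 4.86% and 5.08% had such an unadjusted p. With 9 markers, counts of 0 therefore carry little information. The summed signal of the 11 markers was 10304 to 11971 in WT and 10909 to 13340 in Glut1-TG hearts. Nppa, the atrial natriuretic peptide, read 5577, 5436 and 4639 in WT and 3783, 4416 and 7262 in Glut1-TG hearts, overlapping, and Bmp10, a growth factor of the right atrium, read 150, 111 and 257 against 69.5, 119 and 145. Sln, the atrial inhibitor of the calcium pump, had 2 probe sets under the filter on average. One read 117, 116 and 114 in WT and 65.3, 56.9 and 39.4 in Glut1-TG hearts, and the other read 9.9, 50.9 and 18.0 against 76.5, 386 and 21.3. Mybphl, an atrial myosin-binding protein, read 23.6, 60.6 and 180 against 29.1, 244 and 189. Glut1-TG replicate 2, with the highest Myl7 and main Myl4 signals, also had the highest signal of the second Sln probe set and of Mybphl. Both of these probe sets failed the filter. The same heart was highest for Stard10, which passed the filter and was named after its values were seen. Stard10 read 1972, 1785 and 1529 in WT and 1928, 2230 and 2088 in Glut1-TG hearts, overlapping. Most of the other atrial markers were highest in other hearts, Nppa in Glut1-TG replicate 3 and Bmp10 in WT replicate 3. The first Sln probe set was highest in WT replicate 1. Without Glut1-TG replicate 2 the estimates were 3.41 for Myl7 and 1.52 for Myl4, which was still called. Dkk3, named after its values were seen, was the 1 atrial marker above without overlap, at 159 to 194 against 214 to 467. Its highest signal was in Glut1-TG replicate 1. Over all probe sets past the filter, 8.12% were higher without overlap. The part of atrial tissue in the Myl7 and Myl4 values was not tested.

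**Figure D4:**
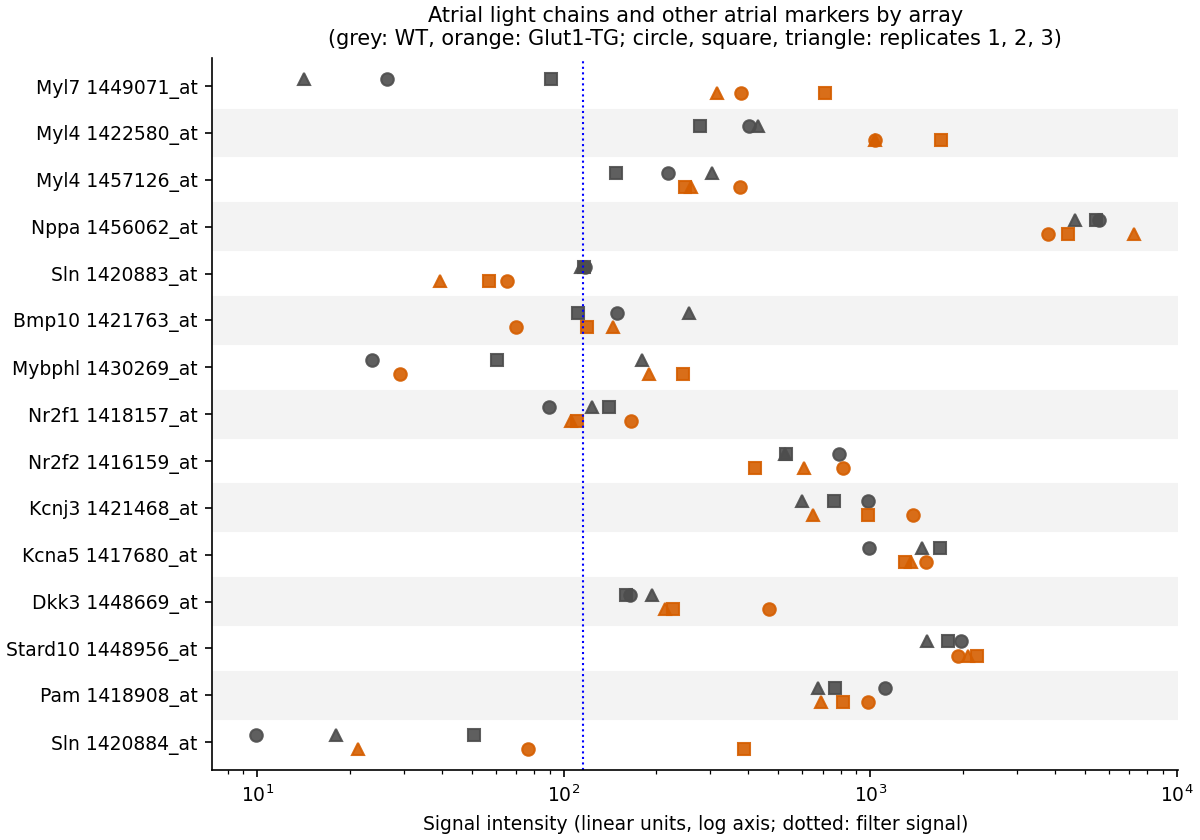
Signal intensity (horizontal, log axis, linear units) of the atrial light chains and of the atrial marker probe sets in each array, WT in grey and Glut1-TG in orange, with circle, square and triangle for replicates 1, 2 and 3 and a dotted line at the filter signal of 115. Myl7, the main Myl4 probe set and Dkk3 separate the groups upwards. The first Sln probe set is lower in all 3 Glut1-TG hearts, and the other probe sets shown overlap between the groups.

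Genes around the myosin chains were counted from 11 lists. They held 119 genes, of which 112 had a probe set and 88 passed the filter. Of these limma called 0, against 0.148% higher and 0.289% lower over all probe sets past the filter. At an unadjusted p under 0.05, 4 of the 88 were higher and 12 lower, where over all probe sets past the filter 4.86% were higher and 5.08% lower. At the study's thresholds 1 was higher and 1 lower, against 3.01% and 2.59% of all probe sets. The 25 transcription factors of cardiac myosin genes had 23 past the filter, with 2 higher and 3 lower without overlap, against the 8.12% and 7.91% of all probe sets given above. The other light chains had 4 of 6 past the filter and a median of -0.11, the other heavy chains 5 of 11 at -0.20, and the light chain kinases and phosphatase subunits 12 of 15 at 0.05. Thick filament and M-band partners had 8 of 12 at -0.26 and thin filament genes 13 of 17 at -0.15, while cardiomyocyte markers had 14 of 14 at -0.17. Tnnt2 read 48817 to 57823 in WT and 45089 to 47520 in Glut1-TG hearts, and Mybpc3 29656 to 36845 and 26737 to 27469. The median over all probe sets past the filter was 0.02.

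The 2 listed genes that passed the study's thresholds were named after their values were seen. Tnnt1, the slow skeletal troponin T that is also made in the fetal heart, read 541, 517 and 474 in WT and 619, 1009 and 982 in Glut1-TG hearts. The estimate was 0.74 on the log2 scale with a standard error of 0.20 (adjusted p = 0.23 by limma), and it was called without Glut1-TG replicate 1. Gata6, a cardiac GATA factor, read 2533, 2354 and 2193 against 1550, 1813 and 1891, at -0.43 (adjusted p = 0.20 by limma). Of smooth muscle markers 4 of 6 passed the filter and 0 were called. Acta2, smooth muscle actin, read 6259 to 10455 in WT and 9171 to 11323 in Glut1-TG hearts, and Myh11, the smooth muscle heavy chain, 445 to 777 and 378 to 610. Conduction system markers had 2 of 7 genes past the filter and 0 called. Counts of 0 in such short lists carry little information, since only 0.148% of all probe sets were called higher and 0.289% lower.

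The signals most like those of the atrial light chains over the 6 arrays were listed as a description, since the 6 points share the split into WT and Glut1-TG. For Myl4 1422580_at they were Aacs, which activates acetoacetate (Pearson r = 0.993), Jkamp (0.992), Mtus1 (0.990), Ankrd17 (0.986) and Igfbp4 (0.986), with log2 fold changes of 0.20 to 1.11 and 0 called. For Myl7 they were Tcta (0.993), Hars2 (0.991), the bZIP factor Jdp2 (0.990), the microtubule end-binding Mapre3 (0.989) and Sorcs2 (0.986). Among these Sorcs2 alone was called, at a log2 fold change of 2.94. None of the 10 is a member of the myosin lists.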

How the data were processed

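Total RNA from 6 left ventricles was labelled as biotinylated cRNA and hybridised to Affymetrix arrays, and the authors processed the scans with GCOS (version not given in the sources used here). The deposited table holds linear signal intensities per probe set and no detection calls. Since the 2% trimmed mean was 500 in every array, the values were taken as scaled by the authors and not scaled again. After removal of 64 control probe sets, signals were floored at 1 (48 values) and log2 transformed. The upper 60% of the others by mean log2 signal (27022 of 45037, signal over 115) were tested.

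The groups were compared without covariates by limma 3.58.1 in R 4.3.3 (lmFit, eBayes with an intensity trend) and Benjamini-Hochberg adjustment at 0.05. The fit was also run on simulated data with independent normal noise, which checks the code and gives no support for the calls. The alternatives changed scaling, offset, floor, filter, probe sets per gene, arrays left out, replicate block and test. The study's thresholds (fold over 1.25, unadjusted p under 0.05) were applied with an unpaired t-test, which its statistics section names in general and not for the array.

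The array annotation gave symbols. Comparison genes were read by their probe set of highest mean log2 signal. By rule, the genes named are the members, called genes of the lists (0 here), preset markers and the 5 genes most correlated with Myl7 and with Myl4. Slc2a1, Dkk3, Stard10, Tnnt1, Gata6, Gsg1l and Cracdl fall outside it and were named with their values known. The members, lists and tests were chosen with earlier results of these data known. The number of arrays limits precision. The p-values set the group difference against the spread between these hearts, which limma moderates over all tested probe sets. No pairing of hearts by replicate number is stated in the sources used here, and the main fit used none.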

Additional observations from a re-analysis of the deposited data

How the results depend on the processing

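Over 19 alternatives the Myl4 1422580_at estimate ranged from 1.09 to 1.92 and was called in 15, and that of Myl7 ranged from 1.93 to 4.50 and was called in 8. Neither was below 0 in any of them, and both counts of calls include the methods' t-test at the study's unadjusted thresholds. All alternatives reuse the arrays in which the higher signals were already known, so they show dependence on processing and give no further support. The count of called members was 1 (Myl4). It was 2 (Myl4 and Myl7) with arrays centred on the cardiomyocyte markers or on the 100 brightest probe sets, with an offset of 50, with signals floored at the filter and with 1 probe set per gene. It was 0 with the probe sets of a gene averaged, without the intensity trend (where 0 of 27022 were called) and with the methods' t-test after Benjamini-Hochberg adjustment, and 3 with that test at the study's thresholds (Myh6 added), which 814 probe sets passed higher and 699 lower of 27022. Leaving out 1 array gave 1 to 1, but without WT replicate 2 that 1 was Myl7 in place of Myl4. Without any 1 Glut1-TG array, and under the strict filter, Myl7 fell under the filter and had no call.

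Hearts of the same replicate number had correlations of deviations of 0.09, -0.02 and 0.06, against -0.11 to 0.06 for hearts of different numbers. With 3 arrays per group these values cannot settle whether the numbers pair the hearts. With the replicate block the count of called members was 2 (Myl4 and Myl7) and that over all probe sets 36 higher and 76 lower.

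Listed genes called were 0, 0 to 1 with 1 array left out (Tnnt1 without Glut1-TG replicate 1) and 2 with the methods' t-test at the study's thresholds (Gata6 and Tnnt1). The shift of Myl7 minus Myl2 was 2.67 with the offset and 2.12 with the floor, and that of Myl4 minus Myl3 was 1.26 with probe sets averaged. Signal over background is a limit for Myl7: its WT signals lay under the filter, so the size of its fold change follows the offset or floor used. The cause of each other change was not tested.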
